A study of Mesocricetus auratus and Mus musculus with 214 samples.

Results

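Maturation of the wild-type (WT) oocyte of the golden hamster (Mesocricetus auratus), from the germinal vesicle (GV) stage to metaphase II (MII), was followed in 7 mRNA libraries, 3 of GV oocytes and 4 of MII oocytes. The labels give genotype and stage, which served to choose them from 214 samples in the series and from 43 libraries in its oocyte and embryo expression table. The study examined PIWI proteins and their small RNAs in hamster germ cells and embryos. GV oocytes (replicates 1, 3 and 4) came from ovaries and MII oocytes (replicates 1, 2, 4 and 5) were collected after spontaneous ovulation. Both groups were from female LVG Golden Syrian hamsters with no mutant allele, and the labels name no agent. The age and the number of the animals are not given in the sources used here. The number of oocytes in a library is not stated outright, though the labels give the spike-in amount per single oocyte. The p-values therefore measure the spread between these libraries, which may be technical. Values are set beside 3 GV and 4 MII libraries of Piwil3-/- oocytes, which are homozygous for a mutation of one of the oocyte's PIWI genes, and beside 3 further libraries of WT MII oocytes that the labels name separately, here the second MII set.

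A GV oocyte is arrested in prophase of the first meiotic division with a large intact nucleus and a store of mRNA made during growth. When meiosis resumes the nucleus breaks down, a spindle forms and moves to the cortex, a polar body is extruded and the cell arrests again at MII, where it waits for a sperm. Almost no transcription takes place in between, so, as known best from mice and frogs, the cell relies on translating stored mRNAs whose poly(A) tails are lengthened while others lose their tails and are destroyed.

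Libraries were made with the Smart-seq2 method, which primes cDNA from poly(A) tails, and per the labels the same amount of ERCC spike-in RNA was used for every single oocyte. The table names no unit, and its values were read from the data as mapped fragments per kilobase of gene per 10000 ERCC reads, so that a value follows the amount of captured RNA in relation to the spike-in. Fewer molecules of an mRNA and shorter tails that are primed less well cannot be told apart in these libraries. The recovered ERCC reads were 8111 to 10458 in the GV libraries and 19153 to 44629 in the MII libraries, where replicate 4 was the lowest. One fragment in a gene of 1 kilobase was therefore worth 0.956 to 1.23 at GV and 0.224 to 0.522 at MII. Across tested genes, log2 values correlated at r = 0.957 to 0.958 among the GV libraries, 0.902 to 0.920 among the MII libraries and 0.678 to 0.707 between stages, as a description over 7 libraries. No 2 libraries held identical values. Of 9 oocyte markers in the table all were above 0 in every GV library, and Figla was at 0 in 1 MII library. Of 20 granulosa and cumulus cell markers, Fshr, Ptx3, Tnfaip6, Pgr, Nr5a1, Npr2 and Gatm were at 0 in all 7 libraries. The summed level of the list was 195 to 299 at GV and 15.4 to 39.1 at MII, most of it from Amhr2 and Nr5a2. Foxl2 (1.74 to 8.973), Kitlg (0.232 to 3.023), Inhba (0.3549 to 1.373) and Ptgs2 (1.504 to 2.494) were also above 0 in every GV library. At MII Foxl2 and Kitlg were at 0 in all 4 libraries, Inhba was at most 0.4709 and Ptgs2 at most 2.817. The remaining members were above 0 in some libraries only, with Inha at up to 9.555 at GV and 13.04 at MII. Of 18 stroma, endothelial and blood cell markers, Col1a1, Col1a2, Col3a1, Lum, Acta2, Cdh5, Kdr, Ptprc, Cd3e and Cyp17a1 were at 0 in all 7. The sum of the list was 265 to 288 at GV and 7.10 to 11.2 at MII, most of it from Csf1r. Vwf (17.1 to 22.2), Myh11 (12.5 to 15.3), Cd68 (3.72 to 8.59) and Pdgfra (1.22 to 5.68) were also above 0 in every GV library. Each of them was at most 2.95 at MII, and the other members were above 0 in some libraries only.

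The poly(A) RNA captured relative to the spike-in was 5.0-fold lower at MII than at GV, and what was left was concentrated in fewer genes. The summed values of all genes were 2714380, 2698970 and 2421960 in the GV libraries and 506206, 502825, 515275 and 562304 in the MII libraries. The stages did not overlap, and the MII libraries lay close together. The mean was 2611770 ± 164564 (SD, n = 3) at GV and 521652 ± 27606 (SD, n = 4) at MII, a log2 difference of -2.32 (two-sided exact permutation test, p = 0.0286, the smallest that 3 against 4 libraries allow). Genes detected at 1 or more per 1000000 of the total numbered 13004, 12686 and 12653 at GV and 9793, 9733, 9098 and 9756 at MII. Every MII library had fewer than every GV library, and the mean at MII was 0.750 times that at GV (exact permutation test, p = 0.0286). The 50 most abundant genes took 21.1% to 22.1% of the total at GV and 41.7% to 42.9% at MII (exact permutation test, p = 0.0286). From 394 to 433 genes made up 50% of the total at GV and 93 to 102 did so at MII (exact permutation test, p = 0.0286).

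**Figure D1:**
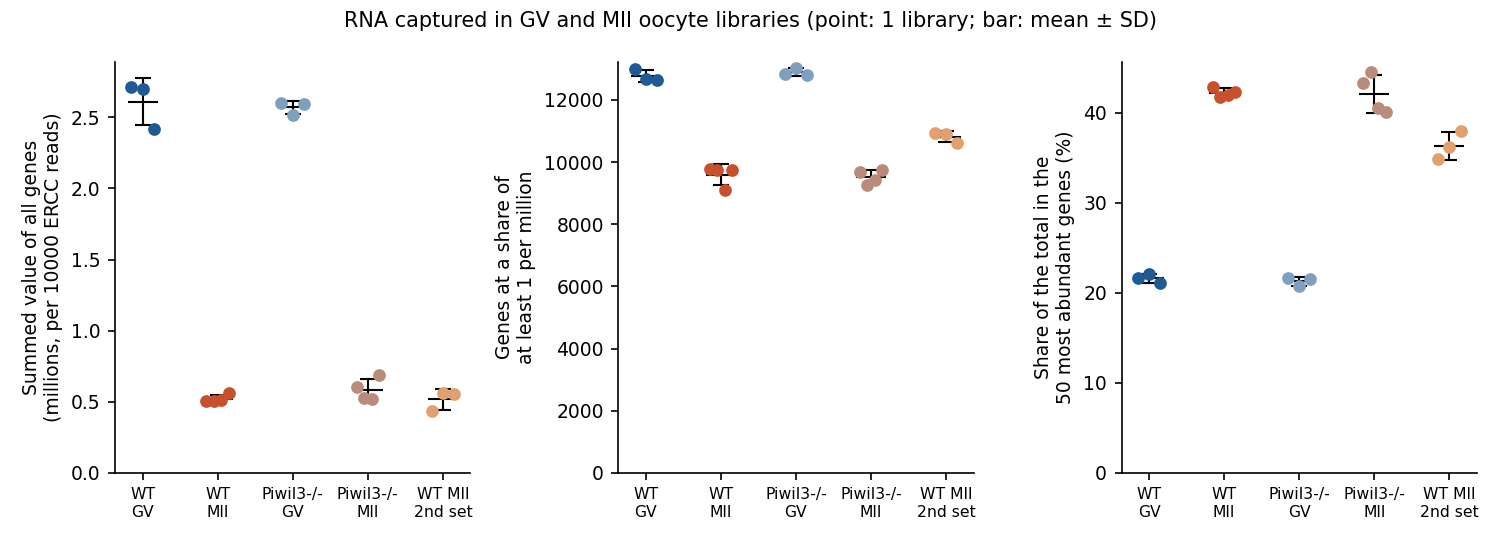
Each point is 1 library: summed value (per kilobase per 10000 ERCC reads), genes detected at 1 or more per 1000000, and share of the 50 most abundant genes in percent, for WT GV and MII oocytes, the second WT MII set and Piwil3-/- GV and MII oocytes. The 4 WT MII libraries sum to 502825 to 562304, all below the 3 GV libraries at 2421960 to 2714380, and lie above them in the share of the 50 most abundant genes.

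Nearly every mRNA fell in relation to the spike-in, and few rose. Of 12066 genes tested (over 2 in at least 40% of the 7 libraries), 7969 were lower at MII by 4-fold or more at an adjusted p under 0.01 in limma, or 66%, and 1 gene was higher, or 0.00829%. At an adjusted p under 0.05 with no fold limit, 11085 genes fell, or 91.9%, and 7 rose, or 0.0580%. The median log2 difference was -2.68, with the middle 80% of genes between -5.28 and -0.94. In 10751 genes, or 89.1%, every MII library was below every GV library, and in 10 genes, or 0.0829%, every MII library was above. At MII 672 of the tested genes were at 0 in all 4 libraries and 2611 were over 2 in none of them, with 1 fragment worth less at MII than at GV. Differences are on the log2(value + 1) scale, which understates the change of genes at low values.

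With every library scaled to the same total, the question becomes which mRNAs kept more or less than an average share. On that scale 3126 genes were lower at MII by 4-fold or more at an adjusted p under 0.01, or 25.9%, and 92 were higher, or 0.762%. At an adjusted p under 0.05, 5493 fell, or 45.5%, and 1823 rose, or 15.1%, around a median of -0.94. Every MII library was below every GV library in 5430 genes, or 45%, and above in 1970, or 16.3%. A rise on this scale is a rise in share and not in amount, since the total itself fell. Where the totals were taken without the mitochondrially encoded and the 50 most abundant genes the median moved to -0.68, and the split became 4478 lower against 2493 higher. The filter admits genes through their GV libraries: 2611 of the tested genes were over 2 in no MII library and 3 in no GV library. The equal totals median was -0.54 to -0.50 without any 1 GV library, where fewer genes pass, -0.40 with no filter and -0.40 with the second MII set, so the value of -0.94 beside which lists are set depends on these choices. A list's distance from the median of all genes can also differ between the scales, since adding 1 to a value weighs more on rare genes. From the ERCC scale to equal totals the median moved from -2.21 to -0.81 for genes with a mean under 10. For genes with a mean of 300 to 1000 it moved from -3.62 to -1.31.

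**Figure D2:**
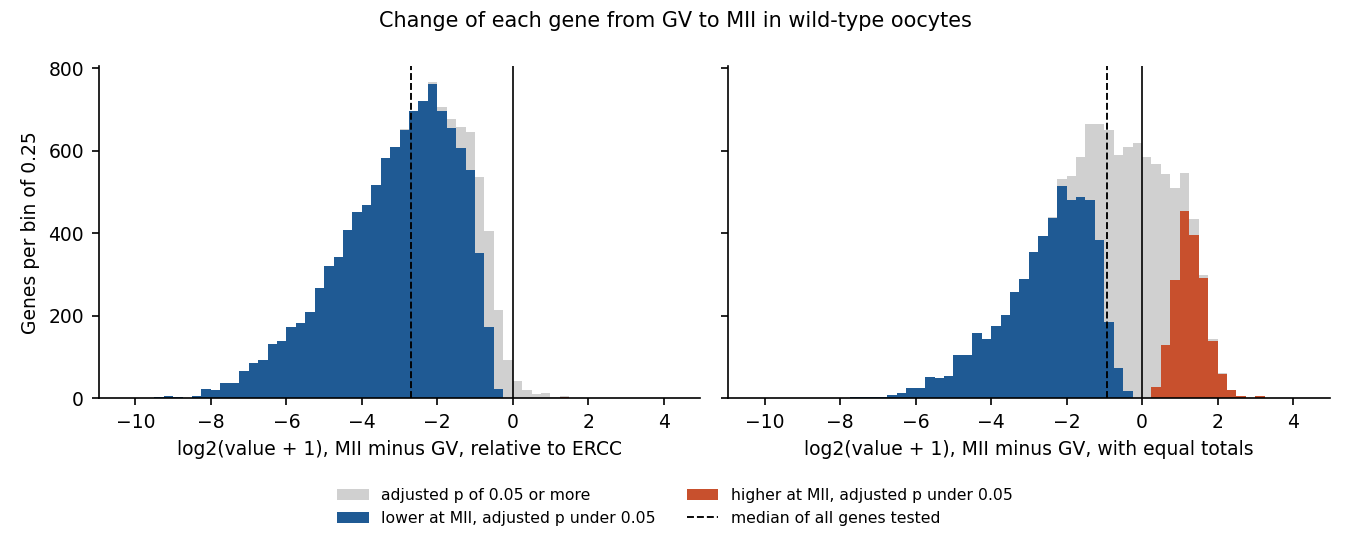
Histograms of the log2(value + 1) difference, MII minus GV, of the 12066 genes tested in WT oocytes, relative to ERCC (left) and with equal totals (right). Colored bars count genes at an adjusted p under 0.05 and grey bars behind them all genes in the bin. Relative to ERCC the bulk of the genes lies below 0 around a median of -2.68, and with equal totals both directions hold genes around a median of -0.94.

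The deepest falls ended at very low values at MII. They were taken from called genes with a name, no overlap of the stages and a mean of at least 50 at GV. Tmem70, which encodes an assembly factor of the mitochondrial ATP synthase, was at 1074, 977 and 852 in the GV libraries and 1.38, 0, 0 and 0 in the MII libraries. Every MII library was at or near 0 and every GV library was high. Tmem70 fell by 9.60 ± 0.38 on the log2 scale (SE, adjusted p = 1.2e-11). Figla, the transcription factor that switches on zona pellucida genes in growing oocytes, was at 1450.0, 1674 and 1146 in the GV libraries and 2.24, 0.962, 0 and 3.17 in the MII libraries. It was high in all GV libraries and near 0 at MII, where replicate 4 read 0. Figla fell by 9.28 ± 0.66 on the log2 scale (SE, adjusted p = 3.4e-09). Rpl19, a protein of the large ribosomal subunit, was at 1287, 1312 and 1369.8 in the GV libraries and 1.91, 2.81, 0.634 and 0.925 in the MII libraries. Again the stages were far apart, with each MII library under 3. Rpl19 fell by 9.09 ± 0.31 on the log2 scale (SE, adjusted p = 3.6e-12). The other genes with the largest differences under these limits are given as log2 differences relative to ERCC ± SE. They were Mix23 (-9.37 ± 0.79), Rpp40 (-9.27 ± 0.40), a subunit of RNase P, and Arl2 (-9.11 ± 0.61), a small GTPase of tubulin folding. Also among them were Ly96 (-9.11 ± 0.56), a partner of the receptor TLR4, and Rpl7a (-9.10 ± 0.60). The last were Saraf (-9.07 ± 0.52), a regulator of store-operated calcium entry, and Rpa3 (-9.05 ± 0.53), a subunit of the single-strand DNA binding protein RPA. On the equal totals scale 9 of these 10 led again, with Psmg3, a proteasome assembly chaperone, in place of Rpl19 (-7.28 ± 0.49). Relative to ERCC the 10 genes were less low in the second MII set. Their log2 difference from the first set was 0.884 (Figla) to 4.2855 (Saraf), and all but that of Figla passed in limma at an adjusted p under 0.05. In the second set Saraf was at 54.742, 56.653 and 32.255, Rpl7a at 55.811, 45.656 and 19.368 and Tmem70 at 7.5981, 0 and 7.905. All 10 stayed below every GV library, but the depth of the falls differed between the sets.

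The most abundant transcripts of the GV oocyte parted ways. Oser1, an oxidative stress responsive gene and the second most abundant at GV, was at 42790, 42847 and 36635 in the GV libraries and 838, 944, 954 and 969 in the MII libraries. It was very high in all GV libraries and far lower in each MII library, and the MII libraries lay close together. Oser1 fell by 5.46 ± 0.12 on the log2 scale (SE, adjusted p = 9.3e-14). Its share fell as well (-3.13 ± 0.09), but with the second MII set the share difference was -0.24 and did not pass (adjusted p = 0.3). Dppa3, also called Stella, a maternal protein that protects DNA methylation in the zygote, was at 19143, 20177 and 17358 in the GV libraries and 8033, 8294, 6879 and 8609.5 in the MII libraries. The stages did not overlap, and the step between them was small. Dppa3 fell by 1.25 ± 0.10 on the log2 scale (SE, adjusted p = 1.3e-08). Its share rose (1.07 ± 0.08). Eif4e1b, an oocyte form of the cap-binding protein eIF4E, was at 18363, 19781 and 16348 in the GV libraries and 3135, 2876, 2479 and 2769 in the MII libraries. All MII libraries were below all GV libraries. Eif4e1b fell by 2.69 ± 0.10 on the log2 scale (SE, adjusted p = 5.6e-12). Its share fell by 0.37 ± 0.10 with equal totals, but with totals taken without the mitochondrially encoded and the 50 most abundant genes the difference was 0.08. The most abundant entry at both stages was an unnamed protein-coding gene model, LOC121139250, at 49110, 51494 and 45246 at GV and 30269, 29716, 31797 and 34282 at MII, and the next at MII was a long noncoding RNA, LOC121137146, at 29676, 30126 and 27673 and 21325, 21278, 22417 and 23401. Both fell in amount (-0.63 ± 0.10 and -0.40 ± 0.08) and rose in share (1.70 ± 0.07 and 1.92 ± 0.05).

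Some mRNAs were captured at MII in an amount close to that at GV. Bcl2l10, a BCL2 family protein abundant in eggs, was at 11124, 13676 and 9951 in the GV libraries and 8223, 7683, 7459 and 9194 in the MII libraries. Its GV libraries all lay above its MII libraries, by a small margin. Bcl2l10 fell by 0.50 ± 0.10 on the log2 scale (SE, adjusted p = 3.0e-04). Ypel5, a protein of the CTLH ubiquitin ligase, was at 10557, 10092 and 7447 in the GV libraries and 6608, 7350.3, 7803 and 9128 in the MII libraries. Here the stages overlapped. Ypel5 had a log2 difference of -0.27 ± 0.14 (SE, adjusted p = 0.072). Rnf34, a RING-type ubiquitin ligase, was at 424, 408 and 412 in the GV libraries and 406, 446, 419 and 488 in the MII libraries. The MII values spanned the GV values. Rnf34 had a log2 difference of 0.08 ± 0.15 (SE, adjusted p = 0.59). Anapc10, the substrate-recognition subunit of the anaphase-promoting complex, was at 287, 265 and 298 in the GV libraries and 242, 279, 292 and 322 in the MII libraries. The values of both stages were intermixed. Anapc10 had a log2 difference of 0.00 ± 0.18 (SE, adjusted p = 0.98). In the second MII set Rnf34 was at 148, 219 and 246 and Ypel5 at 4138, 5791 and 6976, below all GV libraries. There Anapc10 was at 185, 279 and 293, which overlapped its GV values. The test of Ypel5 passed without GV replicate 4 (-0.43) and without MII replicate 5 (-0.36). In share, each of these rose (1.82 ± 0.08 for Bcl2l10, 2.05 ± 0.09 for Ypel5, 2.40 ± 0.17 for Rnf34 and 2.31 ± 0.15 for Anapc10).

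Among called genes with a mean of at least 50 at MII and no overlap in share, Rxylt1 had the largest rise in share. Rxylt1 encodes a glycosyltransferase of the dystroglycan sugar chain. It was at 114, 80.0 and 49.7 in the GV libraries and 197, 183, 206 and 205 in the MII libraries. All MII libraries were above all GV libraries, and the GV libraries differed among themselves by more than the MII libraries. Relative to ERCC the log2 difference was 1.35 ± 0.24 (SE, limma adjusted p = 6.3e-05), and with equal totals 3.64 ± 0.22. Next in share under the same limits came Slc16a6 (2.53 ± 0.32), a monocarboxylate transporter family member, Hhat (2.48 ± 0.44), which palmitoylates hedgehog proteins, Nfkbia (2.45 ± 0.24), the inhibitor of NF-kappa-B, Bod1l1 (2.44 ± 0.24), Rnf34, Anapc10, Rbm25 (2.22 ± 0.14), a splicing regulator, Rab28 (2.20 ± 0.22), a small GTPase, and CUNH1orf198 (2.19 ± 0.20). Of these, relative to ERCC, Slc16a6 to CUNH1orf198 had log2 differences between -0.11 and 0.30, none of which passed the test. The other genes that rose relative to ERCC at an adjusted p under 0.05, named here after their values were seen, were Tes, Mdfi, Gnai1, Setd6 and a pair of unnamed gene models, all at low levels. Tes did not pass without GV replicate 1 (1.70) or 4 (1.95). Gnai1, an inhibitory G protein subunit and the only one past 4-fold at an adjusted p under 0.01, was at 3.34, 0 and 7.95 at GV and 14.2, 19.2, 10.4 and 9.98 at MII. Its MII libraries were all above its GV libraries, 1 of which was at 0, and its log2 difference was 2.05 ± 0.55 (SE, adjusted p = 0.0024). Gnai1 was not past both limits with a pseudocount of 0.1 (adjusted p = 0.011) or 5 (1.15), in the 7 WT libraries alone (adjusted p = 0.018), with the replicate block (1.68), without GV replicate 3 (1.17) or without MII replicate 2 (1.87), and with the second MII set it did not pass at 0.05 either (1.29, adjusted p = 0.074).

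Of the cell-cycle kinases and their regulators nearly all fell relative to ERCC, as did most genes, and individual members differed widely. Counts of list members stand against the shares over all genes tested, and a member over 2 in no MII library could pass the filter only through GV. Of 29 tested genes for meiotic arrest and M-phase kinases 28 fell relative to ERCC (91.9% of all genes tested did) and 0 rose, with a median of -2.38 against -2.68 over all genes. With equal totals 9 fell and 6 rose, against 45.5% and 15.1% of all genes tested, with a median of -0.30 against -0.94. Cdk1, the kinase that drives entry into M phase, was at 435, 469.8 and 338 in the GV libraries and 2.54, 4.73, 1.67 and 1.26 in the MII libraries. Its mRNA was plentiful in GV libraries and under 5 in every MII library. Cdk1 fell by 6.95 ± 0.39 on the log2 scale (SE, adjusted p = 2.9e-10). Ccnb1, cyclin B1, the partner of CDK1 whose stored mRNA is translated during maturation, was at 8949.5, 9536 and 7501 in the GV libraries and 4304, 4015, 3881 and 4090.0 in the MII libraries. Both stages were high and did not overlap. Ccnb1 fell by 1.08 ± 0.14 on the log2 scale (SE, adjusted p = 3.5e-06). Its share rose (1.24 ± 0.11). Ccnb2, cyclin B2, the other B-type partner, was at 4940.5, 4907 and 3697 in the GV libraries and 129.7, 85.9, 148 and 93.3 in the MII libraries. It was low in each MII library. Ccnb2 fell by 5.32 ± 0.19 on the log2 scale (SE, adjusted p = 4.3e-12). The share of Ccnb2 fell (-3.0 ± 0.18). Mos, the kinase that starts the MAP kinase cascade of the MII arrest, was at 2167, 2156 and 1605 in the GV libraries and 62, 40.8, 88.2 and 64.8 in the MII libraries. Each MII library was far below each GV library. Mos fell by 4.96 ± 0.26 on the log2 scale (SE, adjusted p = 1.8e-10). In share, Mos fell as well (-2.65 ± 0.23). Wee2, the oocyte kinase that holds CDK1 inactive during the GV arrest, was at 4611, 4598 and 4309.7 in the GV libraries and 2559.7, 2466, 2332 and 2562 in the MII libraries. The MII libraries lay close together, below all GV libraries. Wee2 fell by 0.86 ± 0.20 on the log2 scale (SE, adjusted p = 6.9e-04). The share of Wee2 rose (1.46 ± 0.16). Cdc25c, a phosphatase that activates CDK1, fell to at most 2.35 from 83.8 to 94.4 (-6.02 ± 0.51). The 1 member that did not pass relative to ERCC was Map2k1, the kinase between MOS and MAP kinase, at 928, 1018 and 957 at GV and 897, 994, 750.05 and 838 at MII (-0.16 ± 0.12), and it was picked out after its values were seen.

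Of 20 tested genes of the anaphase-promoting complex and its inhibitors 19 fell relative to ERCC and 0 rose (median -2.25), near the 91.9% of all genes tested. With equal totals 8 fell and 8 rose (median -0.31), against 45.5% and 15.1%. Ube2c, the complex's ubiquitin-conjugating enzyme, was at 965, 941 and 1009 at GV and 26.8, 13, 21.2 and 33.5 at MII, a log2 difference of -5.38 ± 0.27. Every GV library was far above every MII library, and its share also fell (-3.09 ± 0.26). The subunit Anapc2 (-5.38 ± 0.51) and the coactivator Fzr1 (-5.18 ± 0.49) fell to below 4 in each MII library. Fbxo43 (Emi2), the inhibitor that holds the egg at MII, was at 215, 336 and 291 at GV and 119, 139.8, 104 and 117 at MII. It fell relative to ERCC (-1.20 ± 0.26), with no overlap of the stages, and rose in share (1.11 ± 0.22). Anapc10, described above, was the member that did not pass relative to ERCC.

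Kinetochore and spindle genes stood above the median of all genes on both scales. Of 37 tested, 36 fell relative to ERCC and 0 rose, with a median of -1.66 against -2.68 over all genes, of which 91.9% fell. With equal totals 14 fell and 17 rose, against 45.5% and 15.1%, with a median of 0.66 against -0.94. The deepest falls were in Spc25 (-7.26 ± 0.67) and Nuf2 (-4.76 ± 0.63), subunits of the NDC80 complex that grips microtubules, Tacc3 (-6.0 ± 0.29), a spindle protein, and Cenph (-5.87 ± 0.56), a protein of the inner kinetochore. Spc25 was at 1013, 953 and 805 at GV and 10.5, 2.36, 17 and 0.898 at MII, with spread among the MII libraries but none near the GV level. Among those that rose in share, seen after testing, was Cenpa, the centromeric histone H3, at 623, 638 and 575 at GV and 338, 343, 363 and 379 at MII (-0.78 ± 0.14 relative to ERCC and 1.54 ± 0.09 with equal totals). Its MII libraries were below its GV libraries in amount.

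Of 14 cohesin genes tested, which hold sister chromatids together, 12 fell relative to ERCC and 0 rose (median -1.36), where 91.9% of all genes fell. With equal totals 2 fell and 7 rose (median 0.74), against 45.5% and 15.1%. The meiosis-specific subunit Rec8 was already low, at 12.6, 7.14 and 14.8 at GV, and was 0 in all 4 MII libraries, which at a floor of 3 fragments over the 4 libraries puts it at or below 0.102. By that floor, which covers counting error only, Rec8 was at least 113-fold lower in these MII libraries than the GV mean. In the second MII set it was at 0.366, 0 and 0. Smc3, a core subunit, was at 252, 197 and 176 at GV and 170.2, 154, 165 and 191 at MII, so the stages overlapped (-0.28 ± 0.19, adjusted p = 0.16), and its share rose (2.03 ± 0.15). Rad21, the mitotic counterpart of Rec8, was at 36.3, 45.8 and 40.4 and 21.7, 20.3, 26.6 and 27.8 (-0.74 ± 0.31, adjusted p = 0.034). That call was lost without GV replicate 3 or 4 or MII replicate 1 or 2 (-0.75 to -0.66).

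Of 30 tested genes of deadenylation and decay, which remove mRNA, 25 fell relative to ERCC and 0 rose (median -2.19), where 91.9% of all genes tested fell. With equal totals 9 fell and 7 rose (median -0.02), against 45.5% and 15.1%. Btg4, the adaptor that brings the CCR4-NOT deadenylase to maternal mRNAs, was at 5974, 6573 and 5179 in the GV libraries and 770.0, 641, 780.4 and 712 in the MII libraries. The MII libraries lay close together, far below GV. Btg4 fell by 3.02 ± 0.12 on the log2 scale (SE, adjusted p = 1.1e-11). In share, Btg4 fell by 0.70 ± 0.10. The catalytic subunits behaved otherwise. Cnot7 was at 398, 362 and 422 at GV and 176, 232, 192 and 238 at MII and fell relative to ERCC (-0.92 ± 0.23), while its share rose (1.40 ± 0.19). Cnot6l was at 45.5, 39.5 and 47.3 and 24, 31, 35.2 and 33.2, and although every MII library was below every GV library the test did not pass (-0.51 ± 0.29, adjusted p = 0.1). Its share rose (1.74 ± 0.26). Cnot10, a noncatalytic subunit, fell most among the list (-5.56 ± 0.51), followed by the deadenylase Parn (-4.14 ± 0.48).

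Among 34 tested genes of mRNA storage and translational control 29 fell relative to ERCC and 0 rose (median -1.77), against 91.9% of all genes that fell, and with equal totals 12 fell and 11 rose (median -0.15), against 45.5% and 15.1%. Zar1, which binds stored maternal mRNAs, was at 2291, 4709 and 3537 in the GV libraries and 93.2, 89.2, 106 and 88.6 in the MII libraries. GV replicate 1 was the lowest at GV and still far above every MII library. Zar1 fell by 5.15 ± 0.21 on the log2 scale (SE, adjusted p = 1.5e-11). Its relative Zar1l (-5.52 ± 0.24), Ybx2 (MSY2), a coating protein of stored mRNA (-4.94 ± 0.55), and Patl2, a repressor of translation in oocytes (-4.73 ± 0.21), fell to a like degree. Cpeb1, which binds the cytoplasmic polyadenylation element, was at 481, 463 and 511 at GV and 47.9, 38.5, 68.4 and 88.9 at MII. It fell on both scales, with no overlap of the stages (-3.04 ± 0.32 relative to ERCC and -0.74 ± 0.27 with equal totals). Without GV replicate 1 or 4 or MII replicate 1 or 2 the fall of its share did not pass (-0.77 to -0.56). The largest rise in share in the list, seen after testing, was that of Stau2, a double-stranded RNA binding protein (2.04 ± 0.15), at 249, 206 and 236 and 188, 193, 149 and 241.

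The mRNAs of the zona pellucida and of factors secreted by the growing oocyte fell further than the median gene. All 7 tested genes fell relative to ERCC, as did 91.9% of all genes, with a median of -4.27. With equal totals 5 fell and 0 rose (median -1.96), against 45.5% and 15.1%. Zp2, a zona glycoprotein that sperm bind in mice, was at 6494, 5746 and 5630.1 in the GV libraries and 55.9, 48.8, 48.9 and 58 in the MII libraries. The MII libraries were alike, and none came near the GV level. Zp2 fell by 6.79 ± 0.24 on the log2 scale (SE, adjusted p = 4.3e-12). Zp3, another zona glycoprotein, was at 8740.1, 9017 and 5209 in the GV libraries and 269, 249.6, 258 and 236 in the MII libraries. GV replicate 4 was lower than the other GV libraries and still far above all MII libraries. Zp3 fell by 4.87 ± 0.16 on the log2 scale (SE, adjusted p = 3.2e-12). Gdf9, a TGF-beta family factor that acts on cumulus cells, was at 13380, 13038 and 8599.9 in the GV libraries and 182, 212, 128 and 186 in the MII libraries. GV replicate 4 was again the lowest at GV, far above each MII library. Gdf9 fell by 6.03 ± 0.18 on the log2 scale (SE, adjusted p = 1.8e-12). Bmp15, the partner of GDF9, kept more, at 924, 956 and 869.7 at GV and 142, 147, 122 and 152 at MII (-2.70 ± 0.20). Its stages did not overlap on either scale (-0.38 ± 0.16 with equal totals). Zp1 fell by 4.27 ± 0.24.

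Transcription factors of the oocyte had the second lowest median relative to ERCC among the lists. All 8 tested fell relative to ERCC, as did 91.9% of all genes, with a median of -5.47. With equal totals 5 fell and 1 rose (median -3.45), against 45.5% and 15.1%. After Figla came Lhx8 (-5.94 ± 0.21), Tbpl2 (-5.86 ± 0.64), an oocyte form of the TATA-binding protein, and Nobox (-5.53 ± 0.22), which all direct gene expression in growing follicles of mice. Nobox was at 3524, 3837 and 3242 at GV and 61.6, 70.8, 74.9 and 97.9 at MII, with the stages well apart. Sohlh1 was at 47.8, 49.7 and 46.8 at GV and above 0 in 1 of 4 MII libraries. The 1 that rose in share was Pou5f1 (Oct4), the pluripotency factor of the later embryo, at 1114, 1289.7 and 1135 at GV and 616, 494, 448 and 419.6 at MII (-1.27 ± 0.15 relative to ERCC and 1.05 ± 0.15 with equal totals), named after its values were seen.

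Maternal-effect genes, whose products the embryo needs before its own genome is active, mostly fell relative to ERCC, as did most genes. Of 18 tested, 17 fell relative to ERCC and 0 rose (median -2.54 against -2.68 over all genes), where 91.9% of all genes fell. With equal totals 8 fell and 5 rose (median -0.28 against -0.94), against 45.5% and 15.1% of all genes. Padi6, a protein of the cytoplasmic lattices of the egg, was at 4897, 5837 and 6039.6 in the GV libraries and 100.2, 96.7, 58.1 and 74.0 in the MII libraries. Each MII library was far below each GV library. Padi6 fell by 6.10 ± 0.27 on the log2 scale (SE, adjusted p = 2.6e-11). Npm2, a histone chaperone that decondenses the sperm head, was at 4349, 4415 and 3378 in the GV libraries and 346, 305, 358 and 356 in the MII libraries. The fall was smaller and alike in the MII libraries. Npm2 fell by 3.56 ± 0.19 on the log2 scale (SE, adjusted p = 2.3e-10). Nlrp5 (Mater), of the subcortical maternal complex, fell relative to ERCC (-1.98 ± 0.25) and not in share (0.31 ± 0.21, adjusted p = 0.22). Hsf1, the heat shock factor, was at 293, 313 and 294 at GV and 196, 229, 203 and 200.3 at MII. It fell by 0.54 ± 0.18 in amount and rose in share (1.78 ± 0.15).

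All 17 tested genes of fertilization and egg activation fell relative to ERCC (median -2.05), as did 91.9% of all genes, and with equal totals 4 fell and 4 rose (median -0.07), against 45.5% and 15.1%. In 3 of the 17 no MII library was over 2. Izumo1r (Juno), the sperm receptor on the egg, was at 8000.0, 9343 and 7764 at GV and 646, 548, 378 and 588 at MII. MII replicate 4 was the lowest, and all MII libraries were far below GV (-3.97 ± 0.18). The membrane fusion genes Napa (-6.83 ± 0.80) and Stx4 (-4.76 ± 0.36) fell further. Itpr1, the main calcium release channel of the mouse egg, was low throughout, at 11.9, 7.65 and 9.62 and 4.12, 4.20, 7.22 and 5.16, and fell in amount (-0.81 ± 0.32) while its share rose (1.19 ± 0.34). The fall did not pass without GV replicate 1 or 4 or MII replicate 1 or 2 (-0.80 to -0.66), nor did the rise in share without GV replicate 3 (1.04). Cd9 was under the filter, with a value of at most 3.38 in the 7 libraries. Plat, the tissue plasminogen activator whose stored mRNA is translated during maturation in mice, fell (-2.38 ± 0.36) with no change of share that passed the test (-0.10 ± 0.36).

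Among 28 tested genes of actin, cortex and spindle migration 26 fell relative to ERCC and 0 rose (median -2.16), near the 91.9% of all genes tested. With equal totals 10 fell and 11 rose (median 0.04), against 45.5% and 15.1%. Pfn1, profilin 1, which feeds actin monomers to growing filaments, was at 2779, 2606 and 2560.4 in the GV libraries and 7.39, 4.39, 14.7 and 8.67 in the MII libraries. It was high in all GV libraries and low in each MII library. Pfn1 fell by 8.19 ± 0.37 on the log2 scale (SE, adjusted p = 3.9e-11). Tubb4b (-8.12 ± 0.67) and Tubb (-5.18 ± 0.43), which encode beta-tubulins, and Cfl1 (-4.87 ± 0.21), the actin-severing cofilin, fell as well. Of 7 tested genes of oocyte and cumulus communication all fell relative to ERCC (median -1.39 against -2.68 over all genes). With equal totals 2 fell and 3 rose (median 0.50 against -0.94). The deepest falls relative to ERCC were in the glycine transporter gene Slc6a9 (-4.40 ± 0.60) and the connexin gene Gja4 (-4.25 ± 0.21). Gja4 forms the channels between oocyte and cumulus cells. The receptor gene Kit fell by 1.39 ± 0.29.

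Cytosolic ribosomal protein genes had the lowest median of the lists on both scales. All 79 tested fell relative to ERCC, as did 91.9% of all genes, with a median of -6.08 and a range of -9.10 to -1.09. With equal totals 76 fell and 1 rose (median -4.06), against 45.5% and 15.1%. Their summed share of the total was 1.74% at GV and 0.174% at MII. In 17 of the 79 no MII library was over 2, so these passed the filter through their GV libraries. Rpl7a was at 1690.1, 1686 and 1824 at GV and 3.24, 3.71, 0 and 3.93 at MII. Rps15 of the small subunit was at 546, 357 and 364 and 0, 1.06, 1.08 and 0. In both, the GV libraries were far above every MII library, and at least 1 MII library was at 0. The 1 that rose in share was Rps27l, the p53-responsive relative of Rps27, at 685, 320.5 and 525 at GV and 184, 166, 304 and 294 at MII (-1.09 ± 0.29 relative to ERCC and 1.23 ± 0.26 with equal totals), named after its values were seen. Reads of ribosomal protein genes can also fit their processed copies in the genome, and the counting kept reads with several mapping places, so the value of a single member is uncertain.

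Mitochondrial genes encoded in the nucleus fell nearly as far. Over all genes tested 91.9% fell relative to ERCC, and with equal totals 45.5% fell and 15.1% rose. All 73 tested mitochondrial ribosomal protein genes fell relative to ERCC (median -5.28), and with equal totals 62 fell and 4 rose (median -3.16). Mrps24 (-8.25 ± 0.58), Mrpl35 (-8.08 ± 0.58) and Mrps11 (-8.01 ± 0.60) fell most. Of 57 tested nuclear genes of oxidative phosphorylation 56 fell relative to ERCC and 0 rose (median -5.24), and with equal totals 47 fell and 2 rose (median -3.14). In 14 of the 57 no MII library was over 2, so these too passed the filter through GV alone. Ndufa7, a subunit of complex I, was at 406, 325 and 395 at GV and above 0 in 1 of 4 MII libraries (0, 0, 0.955 and 0). Atp5po, a stalk subunit of the ATP synthase, fell by 8.06 ± 0.34. Of 23 tested genes of pyruvate oxidation and the citrate cycle all fell (median -4.07), and with equal totals 16 fell and 5 rose (median -1.75). Among them was Pdk3, which inhibits pyruvate dehydrogenase and was at 0 in all 4 MII libraries.

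The genes of the mitochondrial genome itself fell less. All 11 tested fell relative to ERCC (median -3.07), as did 91.9% of all genes. With equal totals 7 fell and 1 rose, against 45.5% and 15.1% (median -0.95, against -0.94 over all genes). ND4, a subunit of complex I, was at 3762, 3030.3 and 2835 at GV and 175, 294, 146 and 303 at MII. The stages did not overlap, and MII replicates 2 and 5 were above replicates 1 and 4 (-3.86 ± 0.22). COX2 (-3.75 ± 0.30), ATP6 (-3.52 ± 0.21) and ND4L (-3.48 ± 0.32) were next.

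Proteasome subunit genes mostly fell on both scales. Of 31 tested, 30 fell relative to ERCC and 0 rose (median -5.43), where 91.9% of all genes fell. With equal totals 24 fell and 4 rose (median -3.15), against 45.5% and 15.1%. Psmc1, an ATPase of the base of the 19S cap, was at 4076, 4319 and 4063 in the GV libraries and 13.1, 22.8, 6.90 and 32 in the MII libraries. The GV libraries were alike and high, and the MII libraries were low with some spread. Psmc1 fell by 7.92 ± 0.38 on the log2 scale (SE, adjusted p = 6.3e-11). Psmc3, another ATPase of the base, was at 0 in 3 of 4 MII libraries (-7.59 ± 0.60). Psmb4, of the 20S core, fell by 7.22 ± 0.78. The 4 that rose in share were Psmd1, Psmd2, Psmd3 and Psmd11, all of the 19S cap and named after their values were seen. Psmd1, a scaffold of the cap, was at 223, 207 and 206 at GV and 204, 189.7, 165 and 171 at MII, and its small fall relative to ERCC did not pass the test (-0.22 ± 0.18, adjusted p = 0.25).

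Genes of translation, splicing and transcription also fell, with smaller medians. Over all genes tested 91.9% fell relative to ERCC (median -2.68), and with equal totals 45.5% fell and 15.1% rose (median -0.94). All 43 tested translation factors fell relative to ERCC (median -3.62), and with equal totals 28 fell and 5 rose (median -1.85). Subunits of initiation factor eIF3 led, with Eif3g (-8.40 ± 0.68), Eif3l (-8.05 ± 0.36) and Eif3m (-7.90 ± 0.26). Eif3m was at 2454, 2441 and 2154 at GV and 10.4, 7.45, 5.98 and 13 at MII, with no library of one stage near those of the other. Of 40 tested core spliceosome genes 38 fell (median -3.27), and with equal totals 23 fell and 10 rose (median -1.11). U2af1, which recognizes the 3′ splice site, fell by 7.11 ± 0.40. Of 39 tested genes of RNA polymerase II and general transcription factors 38 fell (median -2.66), and with equal totals 18 fell and 8 rose (median -0.48). Gtf2b (TFIIB) was at 504, 561 and 389 at GV and 0.335, 1.53, 0.390 and 0 at MII (-8.35 ± 0.55), so its mRNA was at 1.53 or less in every MII library. Of 12 tested RNA polymerase III subunits 10 fell (median -3.27), and with equal totals 6 fell and 0 rose. All 38 tested genes of ribosome biogenesis and RNA polymerase I fell (median -3.0), led by Polr1h (-7.71 ± 0.41) and the snoRNP protein gene Nhp2 (-6.91 ± 0.66), and with equal totals 20 fell and 6 rose. In 9 of these 38 no MII library was over 2.

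**Figure D3:**
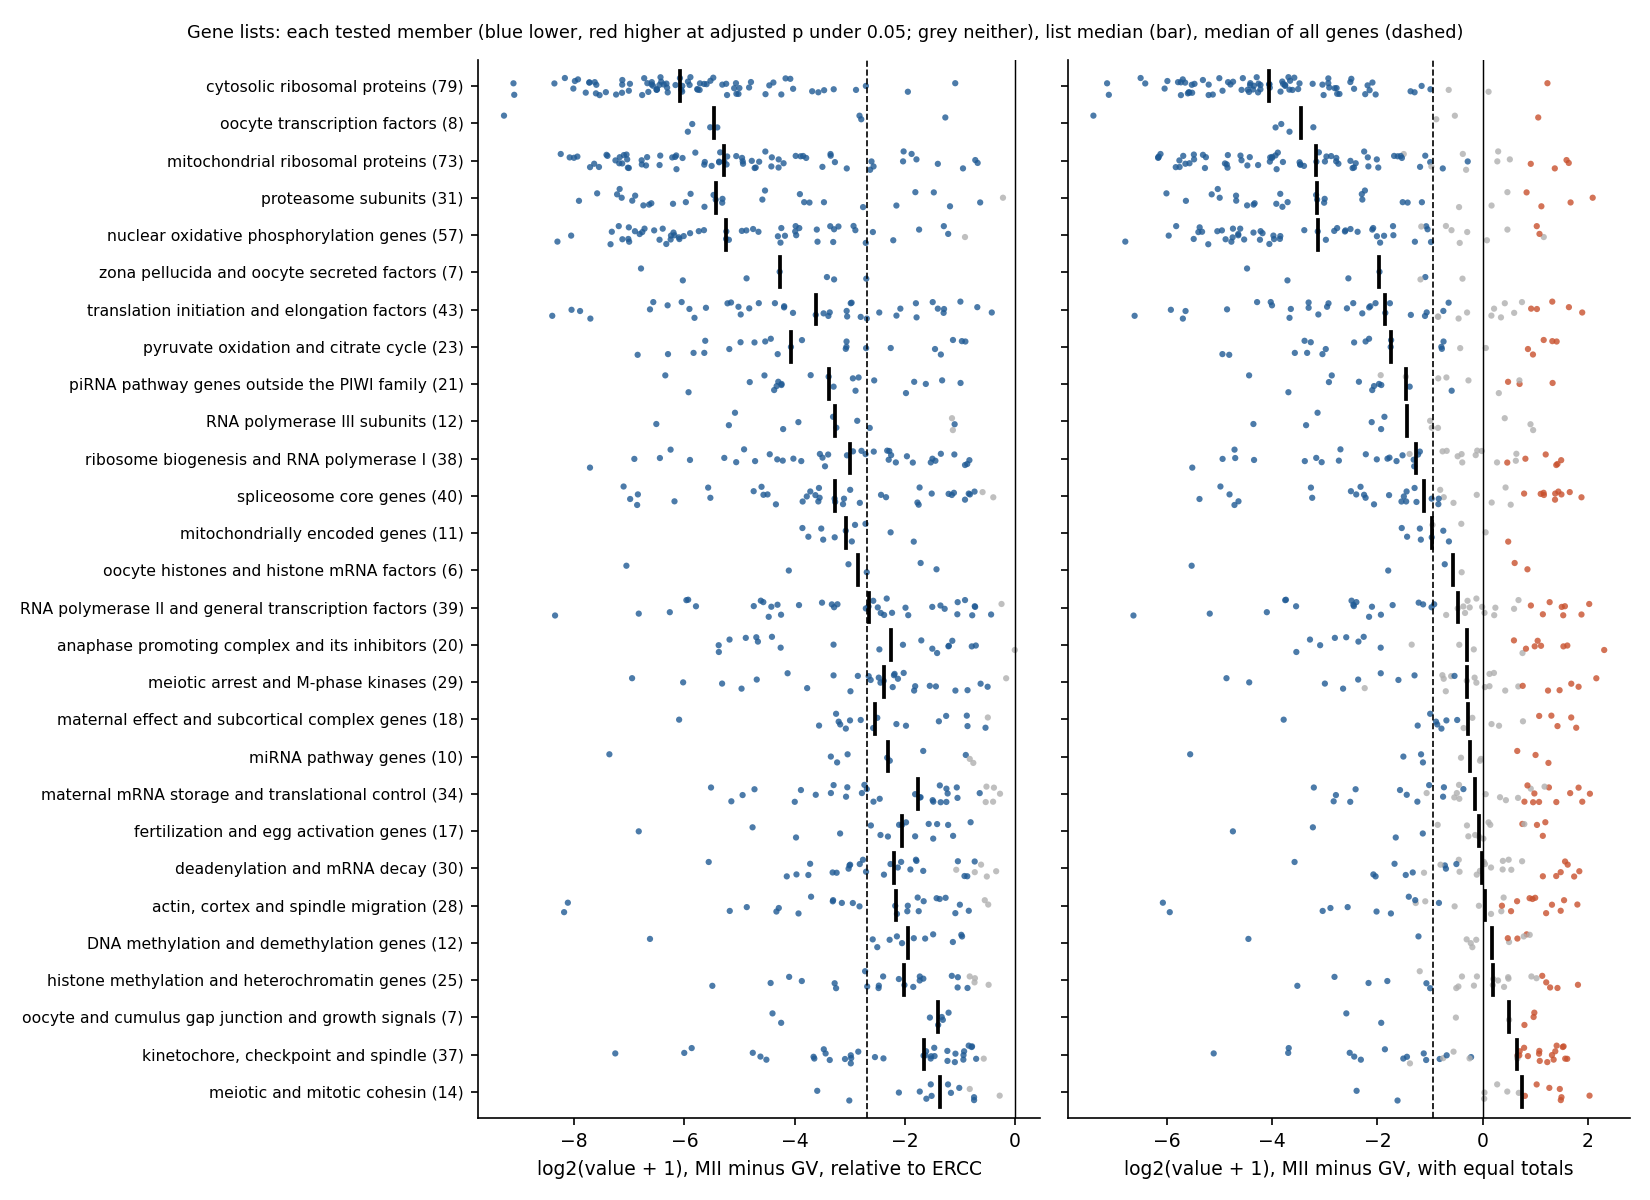
Each point is a tested gene and each bar the median of its list, as the log2(value + 1) difference, MII minus GV, relative to ERCC (left) and with equal totals (right) in WT oocytes. Lists are ordered by their median with equal totals and carry their number of tested genes. The cohesin (0.74) and kinetochore (0.66) lists have the highest medians with equal totals and the cytosolic ribosomal proteins (-4.06) the lowest.

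The 4 PIWI genes, whose proteins carry piRNAs, all fell on both scales, with medians of -3.68 and -1.52, though with the second MII set none of the 4 falls in share passed. Piwil1, which encodes one of the PIWI proteins of hamster oocytes, was at 136, 129.8 and 111 in the GV libraries and 7.67, 8.73, 11.7 and 11.2 in the MII libraries. The MII libraries were alike, below all GV libraries. Piwil1 fell by 3.56 ± 0.24 on the log2 scale (SE, adjusted p = 2.2e-09). Piwil3, a PIWI gene that mice lack, was at 53.3, 54.1 and 43.6 in the GV libraries and 2.45, 4.62, 2.12 and 2.06 in the MII libraries. MII replicate 2 was higher than the other MII libraries and all were far below GV. Piwil3 fell by 3.79 ± 0.33 on the log2 scale (SE, adjusted p = 4.0e-08). Piwil4 was at 51.3, 52.9 and 44 at GV and 0, 5.87, 0.491 and 0.318 at MII (-4.71 ± 0.53), where replicate 2 alone held most of the signal. Piwil2 was low already at GV, at 4.34, 11.9 and 5.63, and fell by 2.60 ± 0.40. Its share fell by 1.29 ± 0.43, a call that was lost without GV replicate 3 (-1.0). All 21 tested genes of the piRNA pathway outside the PIWI family fell relative to ERCC (median -3.38), as did 91.9% of all genes. With equal totals 11 fell and 3 rose (median -1.46), against 45.5% and 15.1%. Fkbp6 (-6.35 ± 0.63), a co-chaperone of piRNA loading, and Mael (-5.93 ± 0.39) fell most. The piRNA factors Gtsf1 (-4.24 ± 0.21), Tdrd1 (-4.37 ± 0.40), Henmt1 (-4.24 ± 0.31), the methyltransferase of piRNA 3′ ends, and Pld6 (-4.33 ± 0.29), the mitochondrial nuclease that makes piRNA 5′ ends, fell by similar amounts. Ddx4 (Vasa), the germ-cell helicase, was at 1282, 1128 and 1113 at GV and 397, 401, 349 and 379 at MII, fell relative to ERCC (-1.62 ± 0.23) and rose in share (0.70 ± 0.19).

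Over all genes tested 91.9% fell relative to ERCC (median -2.68), and with equal totals 45.5% fell and 15.1% rose. Of 10 tested miRNA pathway genes 8 fell relative to ERCC and 0 rose (median -2.30), and with equal totals 4 fell and 3 rose. Tarbp2, the partner of Dicer, fell by 7.36 ± 0.48 to at most 3.69 at MII. All 12 tested DNA methylation genes fell (median -1.94), and with equal totals 2 fell and 3 rose. Dnmt3l, which activates the de novo methyltransferases in growing oocytes, was at 632, 626 and 503 at GV and 2.45, 13.4, 2.35 and 6.37 at MII (-6.63 ± 0.70). Every MII library was far below every GV library. Dnmt1, the maintenance methyltransferase, was at 2223, 1906 and 1841 and 763, 577, 603 and 944 (-1.49 ± 0.24), and its share rose (0.84 ± 0.19). Of 25 tested genes of histone methylation and heterochromatin 21 fell (median -2.01), and with equal totals 6 fell and 5 rose. The deacetylase gene Hdac2 (-5.49 ± 0.42) and the H3K9 methyltransferase gene Suv39h2 (-4.44 ± 0.27) led. All 6 tested genes of histone mRNA and histone chaperones fell, and with equal totals 3 fell and 2 rose.

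The median difference moved with the length of the gene. Length here is the number of bases that turns a gene's values back into whole fragments, which was resolved for 12063 of the 12066 genes tested. Genes under 750 bases had a median log2 difference of -3.84 relative to ERCC and -2.20 with equal totals. The median then moved up at each step, through -3.81 and -2.03 at 750 to 1000 bases, -3.48 and -1.66 at 1000 to 1500, -3.16 and -1.33 at 1500 to 2000, and -2.77 and -0.94 at 2000 to 3000. It reached -2.37 and -0.58 at 3000 to 4000 bases, -2.03 and -0.18 at 4000 to 6000, and -1.75 and 0.05 from 6000. Spearman's rho between length and difference across genes was 0.398 relative to ERCC and 0.394 with equal totals, as a description, since genes are not independent replicates. Among genes with a mean value of 30 to 100 the median with equal totals was -3.13 under 1000 bases and 0.56 from 4000 bases, and among genes with a mean of 300 or more it was -2.27 and 0.86. Of the lists, the median length was 625 bases for cytosolic ribosomal proteins and 698 for nuclear oxidative phosphorylation genes against 2919 for kinetochore and 5098 for cohesin genes. Relative to ERCC the ribosomal protein median was -6.08, that of all genes under 750 bases -3.84, and that of genes under 1000 bases -5.055 at a mean value of 30 to 100, -5.06 at 100 to 300 and -4.57 from 300. The part of length in the differences between lists was not tested.

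**Figure D4:**
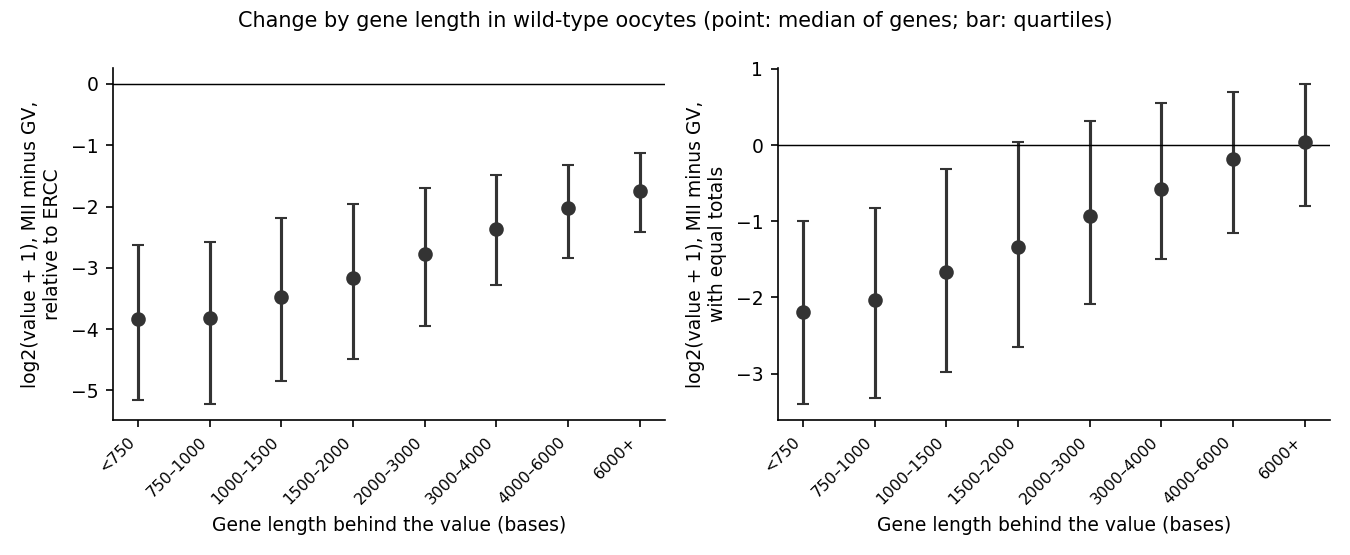
Median (point) and middle 50% of genes (bar) of the log2(value + 1) difference, MII minus GV, by gene length in bases, relative to ERCC and with equal totals, in WT oocytes. The median rises with length on both scales, from -3.84 to -1.75 and from -2.20 to 0.05.

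Piwil3-/- MII oocytes were compared with their own GV libraries in the same way. The total fell 4.43-fold (exact permutation test, p = 0.0286, the smallest possible), and 7474 genes were called lower relative to ERCC, or 61.9%, with 0 called higher. At an adjusted p under 0.05, 10423 fell, or 86.4%, and 7 rose, or 0.0580%, and the median was -2.60. With equal totals 3404 were called lower, or 28.2%, and 175 higher, or 1.45%, and at an adjusted p under 0.05, 5586 fell, or 46.3%, and 1945 rose, or 16.1%. The difference between the genotypes' changes passed at an adjusted p under 0.05 for 74 genes relative to ERCC, or 0.613%, and for 78 with equal totals, or 0.646%, so for most genes no difference was detected with these libraries, and 1288 and 1278 had an unadjusted p under 0.05. The mitochondrially encoded genes held 4 of them on both scales, COX1, ND1, ND4 and ATP6. For ND4 the log2 difference was -3.86 ± 0.22 in WT and -1.84 ± 0.22 in Piwil3-/- (difference -2.02 ± 0.31, adjusted p = 0.004). The Piwil3-/- libraries held ND4 at 4139, 4826 and 5352 at GV and 1383, 1216, 1534 and 1197 at MII, so their MII libraries lay above those of WT. COX1 and ND1, named after their values were seen, differed by -2.05 ± 0.30 and -1.42 ± 0.25, and ATP6 by -2.01 ± 0.29. The mitochondrial share of the total was 1.10% to 1.49% at GV and 0.763% to 1.09% at MII in WT (exact permutation test, p = 0.0571) and 1.65% to 2.11% and 2.18% to 3.17% in Piwil3-/- (exact permutation test, p = 0.0571), and neither test passed at 0.05. In the second WT MII set it was 0.976% to 1.70%, which overlaps the GV libraries (log2 difference 0.12, exact permutation test, p = 0.7). Of the other genes named here, Rxylt1, Oser1 and Ube2c also differed. Rxylt1 was at 240.3, 257 and 306 at GV and 59.6, 76.2, 54.0 and 61.4 at MII in Piwil3-/- oocytes, where it fell, against the rise in WT (difference 3.43 ± 0.33, adjusted p = 1.1e-04). Oser1 fell further in Piwil3-/- (difference 0.95 ± 0.17) and Ube2c less (difference -2.01 ± 0.39).

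The second MII set had totals in the range of the first and more genes detected. Its 3 libraries summed to 432525 to 561977, 5.1-fold below GV (exact permutation test, p = 0.1, the smallest that 3 against 3 libraries allow), and held 10604 to 10923 genes at 1 or more per 1000000, more than the 9098 to 9793 of the 4 libraries described above. Compared directly, 2009 genes were higher in the second set relative to ERCC at an adjusted p under 0.05, or 16.7%, and 542 lower, or 4.49%, and with equal totals 2280 were higher, or 18.9%, and 710 lower, or 5.88%. What set these libraries apart is not given in the labels. The GV libraries are shared by both sets, so only values are given for the stage change: Zp2 was at 338, 403 and 254 in the second set, Oser1 at 8267, 6396 and 5811, Padi6 at 589, 566 and 366 and Psmc1 at 596, 433 and 369. Each of these lay above all 4 libraries of the first set and below all GV libraries. With the second set in place of the first, the equal totals differences of Eif4e1b (0.31), Cpeb1 (0.74), Bmp15 (0.54) and Izumo1r (0.49) were above 0, where the first set gave values below 0, and Rnf34 (-1.05), Slc16a6 (-1.14), Nfkbia (-0.72), Mdfi (-0.91) and Setd6 (-0.02) were below 0 relative to ERCC. Of 132 named genes, 37 lost the call of their share with the second set and 89 did not change theirs, and relative to ERCC 2 lost it and 117 did not change theirs. Among the shares that no longer passed were those of Ccnb1 (0.13), Fbxo43 (0.04), Cenpa (0.05), Pou5f1 (0.13), Ddx4 (0.30), ND4 (-0.43) and all 4 PIWI genes (-1.16 to -0.06). Measured against the second set, the genes called lower were 7334 relative to ERCC and 1367 with equal totals.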

How the data were processed

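Libraries of 3 GV and 4 MII wild-type oocytes were read from the deposited oocyte and embryo table, and grouped by the labels. The values are a ratio that the authors deposited: fragments mapped to a gene per kilobase of its length, per 10000 reads of the ERCC spike-in. According to the methods and the submitters' processing notes, reads were trimmed with Trim Galore 0.5.0, aligned with STAR 2.9 and counted with featureCounts 1.6.4, which kept reads with several mapping places. The notes list mm10 and the methods name the BCM_Maur_2.0 hamster genome. All 36133 gene IDs matched the latter's RefSeq gene table. Depth was recovered from the values, since those of the 13 mitochondrially encoded genes are whole fragments over length: the 7 libraries hold 1755954 to 4734697 fragments in genes of resolved length. Fragments amplified by PCR are not independent molecules, so floors cover counting error only.

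Genes over 2 in at least 40% of the 7 libraries were tested on log2(value + 1) with limma 3.58.1 (lmFit and eBayes with a trend, R 4.3.3) in 1 fit of wild-type and Piwil3-/- GV and MII groups, with Benjamini-Hochberg adjustment over all genes tested. The same fit was run with each library scaled to a total of 1000000. A gene was called at a 4-fold difference and an adjusted p under 0.01, and genes of lists were counted as rising or falling at an adjusted p under 0.05. Totals were compared with exact permutation tests over libraries. Tables and figures were made with Python 3.11.15, pandas 2.3.3, numpy 2.4.6 and matplotlib 3.10.9. The fit was tested on simulated data.

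The text names the 10 largest differences in each direction and scale among called genes with a gene name, no overlap of the stages and a mean of at least 50 in the higher stage, the 5 most abundant genes at each stage, up to 4 members of each list per scale, and fixed genes of the piRNA pathway and of meiotic maturation. Exceptions are marked as named after their values were seen, and 1 gene that the rule names is not reported here. The genes, lists and tests were chosen with earlier results of these data known. The alternatives tried were other pseudocounts, filters, sample sets, scalings, a replicate block and leaving out each wild-type library. Embryo libraries entered only an alternative fit of 10 groups, and small RNA libraries were not analysed here.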

Additional observations from a re-analysis of the deposited data

Results flagged for a closer look

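In single genes, 1 MII library stood apart from the other 3 in 11 of 133 genes, where chance flags about 1 in 20 groups of normally spread values. In Tmem70, Rpa3, Sohlh1, Ndufa7 and Psmc3 the other 3 libraries were at 0, so that any single value above 0 stands apart and that rate does not apply. Of these, 9 were values under 7: Tmem70 at 1.38, Rpa3 at 0.540, Cdc25c at 2.35, Sohlh1 at 0.807 and Psmc3 at 3.18 in MII replicate 1, Saraf at 6.61, Piwil3 at 4.62 and Piwil4 at 5.87 in MII replicate 2, and Ndufa7 at 0.955 in MII replicate 4. The other two were higher: Zp1 was low in MII replicate 4 (48.0) and Amhr2 high in MII replicate 5 (13.8). MII replicate 4, the library with the fewest ERCC reads and fragments, also had the fewest genes at 1 or more per 1000000 (9098).

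The change from GV to MII differed between wild-type and Piwil3-/- oocytes, by the test of the difference itself, for 7 of the genes named, given as wild type minus Piwil3-/- on the log2 scale. Rxylt1 was above 0, at 3.43 relative to ERCC and 3.59 with equal totals, and so was Oser1, at 0.950 and 1.13. Ube2c was below 0, at -2.01 and -1.86. Of the mitochondrially encoded genes, ND4 (-2.02 and -1.85), ATP6 (-2.01 and -1.84), COX1 (-2.05 and -1.87) and ND1 (-1.42 and -1.24) were below 0. In this list the equal totals medians were -0.95 in wild type and 0.49 in Piwil3-/- oocytes. The mitochondrial share at GV was 1.10% to 1.49% in wild type and 1.65% to 2.11% in Piwil3-/-, with no overlap, and at MII in the second wild-type set it was 0.976% to 1.70%. The part of this in the result was not tested.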

How the results depend on the processing

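The fall relative to ERCC kept its direction throughout: genes called lower numbered 5251 with a pseudocount of 5, and 6219 to 8133 under the other alternatives at the same threshold with every library of the first set kept. Leaving out 1 library gave 5494 to 8019, the low values without a GV library, where fewer genes passed the filter. With the same genes tested, an alternative chosen after seeing the data, they were 7713 to 7963. Genes called higher were 0 with a pseudocount of 5, in the wild-type libraries alone and with the replicate block, 2 in a fit of 10 groups, 6 with the second MII set, 6 at 2-fold and an adjusted p under 0.05, 0 to 2 with 1 library left out and 2 without GV replicate 3 with the same genes tested.

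With equal totals, genes called lower were 1739 with a pseudocount of 5, 1367 with the second MII set, 5215 at 2-fold and an adjusted p under 0.05, and 1601 to 3082 with 1 library left out. The low values were without GV replicate 1 (1602), 3 (1651) or 4 (1601), and with the same genes tested these became 2699 to 2743. Genes called higher were 33 with a pseudocount of 5, 53 in the fit of 10 groups, 447 with totals without the mitochondrially encoded and the 50 most abundant genes, 1380 at 2-fold and an adjusted p under 0.05, and 81 to 98 with 1 library left out. The split at an adjusted p under 0.05 was 3908 lower and 555 higher in the fit of 10 groups, against 5493 and 1823.

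The count of genes whose change differed from Piwil3-/- moved with many settings. Relative to ERCC the 74 became 48 without a variance trend, 14 with the replicate block, 1621 with the second MII set and 19 to 84 with 1 library left out (21, 19 and 41 without GV replicates 1, 3 and 4). With equal totals the 78 became 13 in the fit of 10 groups, 23 without a trend, 10 with the block, 2034 with the second set, 51 with median ratios, 27 to 112 with 1 library left out, and 37, 38 and 52 with the same genes tested without GV replicates 1, 3 and 4. The difference of totals was -2.35 with the second MII set (exact permutation test, p = 0.1) and -2.38 to -2.29 with 1 library left out, and that of genes detected -0.42 to -0.39. With 1 library left out, the smallest p these designs allow is above 0.05.

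Same-numbered libraries showed no shared deviation: deviations from the group means correlated at -0.02 for number 1 and -0.004 for number 4 in wild type, and at -0.01 and -0.05 for numbers 2 and 5 in Piwil3-/-. With so few pairs, and group means of so few libraries, these values cannot show whether a number marks a shared source. With the replicate block 7967 genes were called lower relative to ERCC and 2890 with equal totals. Of 264 values of named genes, 186 kept their call under every alternative run for them, which for some genes leaves out those whose filter they did not pass. Those that changed sign did so with the second MII set: Slc16a6 (-1.14), Nfkbia (-0.72), Rnf34 (-1.05), Mdfi (-0.91) and Setd6 (-0.023) relative to ERCC, and Eif4e1b (0.31), Cpeb1 (0.74), Bmp15 (0.54), Izumo1r (0.49) and Csf1r (0.27) with equal totals. Eif4e1b also did so, at 0.083, with totals without the abundant genes. The causes were not tested.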

Other observations

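Values by abundance are given with no test. Among the 188 tested genes with a mean value of 1000 or more over the 7 libraries, 47.9% fell and 45.2% rose with equal totals, around a median of 0.05. Among the 4238 genes with a mean under 10 the same shares were 36.6% and 5.22%, around a median of -0.81, where 1 fragment is a large part of a value. The middle 50% of genes spanned -2.14 to 1.23 in the abundant class and -1.56 to 0.11 in the rare class.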
